A study of Mus musculus with 6 samples.

Results

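Voltage-gated sodium channels generate the action potentials of sensory neurons, and 9 of their subunit genes were measured in the dorsal root ganglia (DRGs) of Meis1cko and control mice. The 9 genes were taken by name, on the probe sets for which the array annotation lists that symbol alone. They are 6 pore-forming alpha subunit genes (Scn1a, Scn3a, Scn8a, Scn9a, Scn10a and Scn11a) and 3 auxiliary beta subunit genes (Scn2b, Scn3b and Scn4b), out of 18193 genes that the annotation gives for at least 1 probe set alone. They have 23 of the 45037 probe sets tested, with 5 each for Scn8a and Scn9a, 3 each for Scn1a and Scn2b, 2 each for Scn3a and Scn3b, and 1 each for Scn10a, Scn11a and Scn4b. The values of a gene are those of the probe set with the highest mean log2 intensity over the 6 arrays (the brightest), with the remaining probe sets beside it.

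Total RNA of cervical, thoracic and lumbar DRGs was hybridized to Affymetrix mouse genome arrays at P60 (2 months of age), with 3 Meis1cko and 3 control mice and 1 array per mouse. Meis1cko mice combine floxed Meis1, which loses a homeobox exon where Cre is present, with a Nav1.8-Cre transgene. Nav1.8 is the protein of Scn10a, and the transgene takes its promoter from that locus, which confines Cre largely to nociceptors. Ganglion cells without Cre keep the Meis1 exon. The study reports that by P60 Meis1 RNA was confined to a few large neurons and was below detection in nociceptors. The labels call the other mice only control. Floxed littermates are named as controls of the behavioural tests, but for the arrays the alleles of the control mice are not given in the sources used here, so that the loss of Meis1 and the presence of the transgene cannot be told apart. The sex of the mice behind each array was not given either.

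An alpha subunit forms the whole sodium-selective pore with its voltage sensors and inactivation gate, and a beta subunit is a small membrane protein with an immunoglobulin fold that changes gating, surface expression and adhesion. The channels of Scn1a (Nav1.1), Scn3a (Nav1.3), Scn8a (Nav1.6) and Scn9a (Nav1.7) are blocked by low concentrations of tetrodotoxin, and those of Scn10a (Nav1.8) and Scn11a (Nav1.9) resist it. In adult DRGs, Nav1.8 and Nav1.9 are known mainly from nociceptors, Nav1.7 from nociceptors and other small neurons, and Nav1.1 and Nav1.6 from large myelinated neurons, with Nav1.6 at the nodes of Ranvier. Nav1.3 is known as the embryonic form that is low in adult neurons and returns after nerve injury. In a whole ganglion, fewer cells of a type and less RNA per cell cannot be told apart.

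In the RefSeq gene table, Scn10a and Scn11a are neighbouring protein-coding genes. Scn1a, Scn9a and Scn7a form another run, Scn3a lies beside Scn2a, and Scn2b beside Scn4b. The 250 bases before the RefSeq start sites of Scn10a and Scn11a are shown because the first of these regions belongs to the gene whose promoter drives the Cre, and the second to its neighbour with the same resistance to tetrodotoxin. Both are from GRCm38.p6, minus strand, at chr9:119719033-119719282 for Scn10a and chr9:119825457-119825706 for Scn11a, and capitals mark the longest run of letters that both share.
Scn10a: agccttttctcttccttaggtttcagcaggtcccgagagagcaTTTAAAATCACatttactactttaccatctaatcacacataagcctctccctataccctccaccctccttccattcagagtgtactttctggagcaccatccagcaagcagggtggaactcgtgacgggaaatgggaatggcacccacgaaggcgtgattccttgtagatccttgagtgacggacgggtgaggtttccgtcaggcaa
Scn11a: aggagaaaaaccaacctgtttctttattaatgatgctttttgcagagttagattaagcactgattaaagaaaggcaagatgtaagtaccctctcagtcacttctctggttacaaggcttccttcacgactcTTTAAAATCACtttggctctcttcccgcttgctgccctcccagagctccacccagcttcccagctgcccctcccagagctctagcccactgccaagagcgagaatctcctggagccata
The shared run of 11 bases, TTTAAAATCAC, starts 207 bases before the start site in Scn10a and 119 bases before it in Scn11a. Searched on both strands, it is in 8 (0.0244%) of all 32851 windows in the table (each 250 bases before to 50 after a start). These 8 include the 2 windows it was taken from. The run was picked as the longest that both share, so this percentage is not a test of it. The other 26 pairs of windows of different sodium channel genes were compared over the 250 bases before the start. Their longest shared run on the same strand had 6 to 10 bases. The letters TGACAG, the core of the site that Meis proteins are known to bind, were searched on both strands in the 8 windows of 7 of the 9 genes that the table matched. They were in 0 of the 8 and in 19.2% of all windows, and the shorter TGACA that TGACAG contains was in 3 (Scn1a, Scn8a and Scn9a) and in 45.4% of all windows. These are descriptions of letters in short windows and say nothing on binding.

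Across the whole array, 7 probe sets passed an adjusted p of 0.05 in limma, which is 0.0155% of those tested, and with the replicate numbers as pairs 37 passed. None of the 23 sodium channel probe sets passed in either fit. Arrays had median intensities between 62.7 and 65.6. Meis1, the targeted gene, had 66, 72.1 and 64.2 in Meis1cko DRGs and 109.7, 143.8 and 90.2 in control DRGs on its brightest probe set, and no Meis1cko array reached a control array. On the log2 scale this was -0.74 with an SE of 0.18, and limma gave an adjusted p of 1. The unadjusted p of Meis1 in limma was 0.00434. With the replicates paired it was 0.00052, with an adjusted p of 0.160. The remaining 2 probe sets were dimmer. For 1459423_at the log2 fold change was 0.13 (SE 0.12), with means of 34.9 in Meis1cko and 32.0 in control DRGs. Every Meis1cko array was above every control array there, opposite to the brightest probe set. The gap was narrow, with the lowest Meis1cko array at 33.78 and the highest control array at 33.75. The last, with means of 18.4 in Meis1cko and 20.2 in control DRGs, had -0.16 (SE 0.19) and overlapping arrays. Whether any of the 3 lies in the deleted exon was not analysed here. The label of the tissue was checked against neuron genes. All 13 that were listed were measured above the median of the array, among them the sensory neuron factors Isl1, with a mean of 3708 in Meis1cko and 3239 in control DRGs, and Pou4f1, with 704 in Meis1cko and 990 in control DRGs. The arrays of Pou4f1 had 911.2, 936.6 and 263.9 in Meis1cko and 1056, 1184 and 729.1 in control DRGs, lowest on replicate 3 in each genotype. They overlapped, with a log2 fold change of -0.67 (SE 0.48). The replicate 3 array of each genotype stood apart from the other 4. The log2 difference of the 3′ over the 5′ control probe set of Actb averaged 0.43 on replicate 3 arrays and 1.38 on others. Of those others, Meis1cko replicate 1 had the highest, 1.66, beside 1.23 to 1.32 on the rest. Some of the results that move with the replicate 3 arrays are also given without them or with the replicates paired.

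Scn10a had the largest difference of the 9 genes and was the one whose genotypes did not overlap. Its only probe set (1450266_at) had intensities of 1213, 949.7 and 993.1 in Meis1cko DRGs and 752.4, 696.5 and 803.6 in control DRGs. Every Meis1cko array was brighter than every control array, with means of 1052 ± 141 in Meis1cko and 751 ± 53.6 in control DRGs (SD, n = 3). Their geometric means gave a ratio of 1.40. On the log2 scale the difference was 0.48 (SE 0.14), with a 95% interval of 0.16 to 0.81 that corresponds to ratios of 1.11 to 1.75. After adjustment for the whole array the p of limma was 1, or 0.360 with the replicates paired. The unadjusted p was 0.00975 in limma, and the exact two-sided permutation p was 0.1, the smallest that 3 mice against 3 allow. The 3 numbered pairs differed by 0.69, 0.45 and 0.31 on the log2 scale. Without either replicate 3 array the log2 fold change was 0.57 (adjusted p = 0.914 from limma). It stayed between 0.37 and 0.55 when any single array was left out. The lowest, 0.37, was without Meis1cko replicate 1, the array with the highest 3′ over 5′ difference of Actb. Nav1.8 carries most of the sodium current in the upstroke of the nociceptor action potential. The Cre transgene holds a genomic fragment of the same locus, and whether RNA from that fragment reaches this probe set was not tested.

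Of the 9 genes, 1 was higher and 0 lower at an unadjusted p under 0.05 in limma, where 1.19% and 1.37% of the brightest probe sets of all 18193 genes were higher and lower. In the same base, 3.12% had every Meis1cko array above every control array and 3.82% every Meis1cko array below, against 1 and 0 of the 9. None of the 9 passed the thresholds of the methods, a fold over 1.5 with a p under 0.05, which 0.781% of all genes passed here with the p of limma. At 1.40, the ratio of Scn10a was under that fold.

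**Figure D1:**
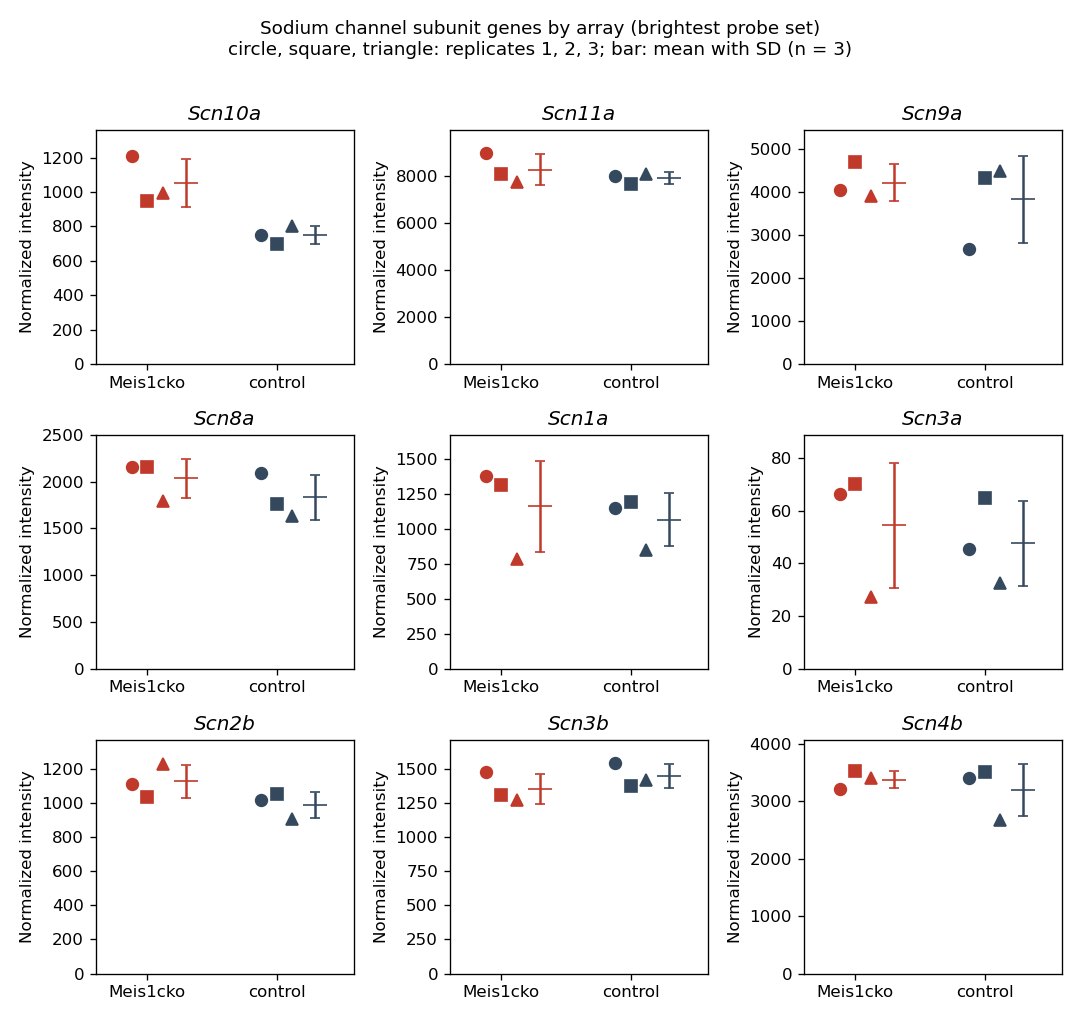
Normalized intensity (linear axis from 0, one scale per gene) of the 9 sodium channel subunit genes in each Meis1cko and control array at P60, on the brightest probe set, with symbols for replicates 1 to 3 and a bar for the mean with SD (n = 3). The Meis1cko arrays of Scn10a lie between 949.7 and 1213, above the control arrays at 696.5 to 803.6, and those of the other 8 genes overlap with control.

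Scn10a was also set against other readings of its own array, a difference that multiplying an array by a factor cannot change. Scn10a and the 6 readings were chosen after the values had been seen and the intensities are those given above, so that these differences describe the same arrays and were not used as a further test. The log2 difference of Scn10a minus Scn11a was -2.89, -3.09 and -2.96 in Meis1cko DRGs and -3.41, -3.46 and -3.33 in control DRGs, a shift of 0.42 with no overlap between genotypes. Against the median of 16 measured nociceptor genes of the same array the shift was 0.66, and against 16 genes of myelinated neurons it was 0.44. Against 13 genes common to neurons it was 0.61, and against the median of the other 8 subunit genes 0.45. In each of these the genotypes did not overlap. Each median was taken over the log2 intensities of an array, so that it rests on the genes in the middle of a list. It is not the median log2 fold change of the list. That was -0.01 for nociceptor genes, 0.01 for genes common to neurons and 0.10 for genes of myelinated neurons. Against Scn9a the shift was 0.31 with overlapping arrays, of which control replicate 1, the array with the lowest Scn9a, was the highest control.

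**Figure D2:**
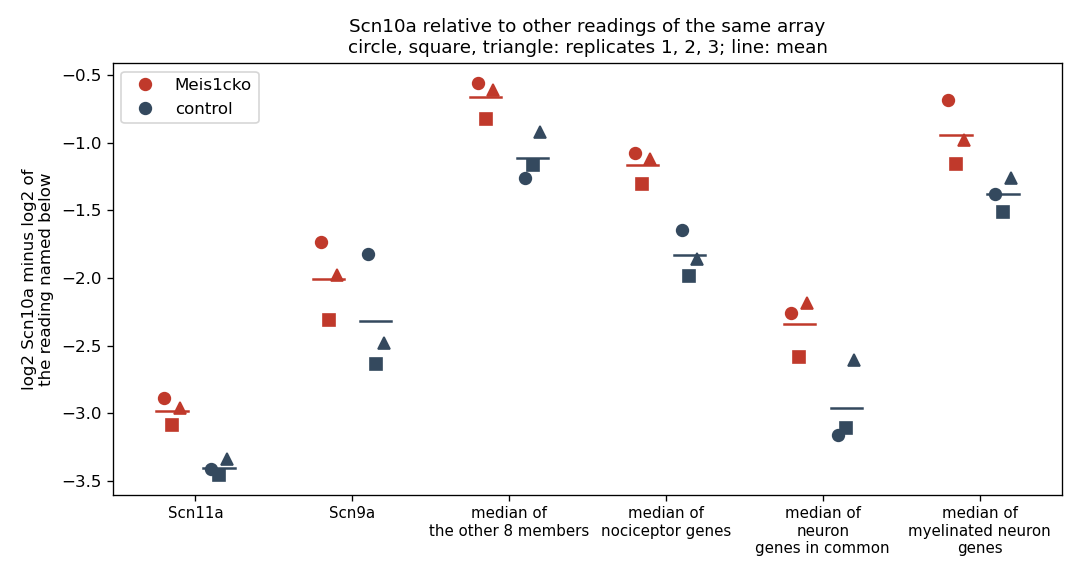
Log2 intensity of Scn10a minus that of another reading of the same array (vertical axis), for 3 Meis1cko and 3 control arrays, with symbols for replicates 1 to 3 and lines for the means. The Meis1cko arrays lie above all control arrays for 5 of the 6 readings and overlap with them for Scn9a.

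Scn11a, the neighbour of Scn10a, encodes Nav1.9, whose persistent current sets the resting excitability of nociceptors. Its only probe set (1420784_at) had 8985, 8078 and 7741 in Meis1cko and 7991, 7636 and 8097 in control DRGs. The genotypes overlapped, and the log2 fold change was 0.06 (SE 0.12). This was the smallest difference among the brightest probe sets, with a 95% interval of -0.21 to 0.33, or ratios of 0.865 to 1.26.

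Scn9a encodes Nav1.7, the channel whose loss removes pain sensation in humans. Its brightest probe set (1442810_x_at) had 4032, 4700 and 3906 in Meis1cko and 2667, 4322 and 4493 in control DRGs. Control replicate 1 was low and the other 5 arrays lay close together, so that the genotypes overlapped, and the log2 difference was 0.17 (SE 0.22). Without control replicate 1 it was -0.07. The suffix of this probe set marks probes that can also bind other transcripts. A probe set of Scn9a without it (1442809_at) had 1191, 1524 and 1041 in Meis1cko and 586.6, 1356 and 1354 in control DRGs, with control replicate 1 low again and a log2 difference of 0.27 (SE 0.34). Its remaining 3 probe sets had 0.02, 0.16 and -0.16, with SEs of 0.60, 0.70 and 0.72.

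Scn8a encodes Nav1.6, the channel of nodes of Ranvier. Its brightest probe set (1423515_at) had 2152, 2154 and 1794 in Meis1cko and 2096, 1764 and 1631 in control DRGs. The replicate 3 array was the lowest of each genotype and the genotypes overlapped, with a log2 fold change of 0.15 (SE 0.15) and a 95% interval of -0.19 to 0.50. A second probe set (1457412_at) had 812.1, 820.3 and 663.0 in Meis1cko and 591.0, 702.9 and 599.4 in control DRGs. Here 1 control array lay above 1 Meis1cko array, and the log2 fold change was 0.28 (SE 0.14, unadjusted p = 0.0894 in limma). With the replicates paired its unadjusted p was 0.0409 and its adjusted p 0.695 in limma. The remaining 3 had log2 fold changes of 0.00, 0.15 and -0.01, the dimmest of them at 30.4 in Meis1cko and 30.7 in control DRGs.

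Scn1a encodes Nav1.1, which in DRGs is found in myelinated neurons. Its brightest probe set (1450121_at) had 1380, 1316 and 786.6 in Meis1cko and 1151, 1196 and 848.5 in control DRGs, so that in both genotypes the replicate 3 array was the lowest by a wide gap. The log2 fold change was 0.10 (SE 0.25), and it was 0.20 without either replicate 3 array. The next probe set (1450120_at) had 370.5, 334.7 and 337.6 in Meis1cko and 384.0, 352.7 and 324.4 in control DRGs, a log2 fold change of -0.02 (SE 0.12). The dimmest had means of 44.8 in Meis1cko and 33.4 in control DRGs and a log2 fold change of 0.45 (SE 0.22), with 1 control array among the Meis1cko arrays. The sign of Scn1a differed between its probe sets, and none passed.

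Scn3a, the gene of the embryonic Nav1.3, was dim on these arrays. Its brighter probe set (1439204_at) had 66.2, 70.1 and 27.1 in Meis1cko and 45.4, 64.8 and 32.5 in control DRGs, and its mean was the only one of the 9 below the median of all probe sets (64.8). The replicate 3 arrays were the lowest of each genotype, and the log2 fold change of 0.13 (SE 0.40) had the widest unpaired interval of the 9 brightest probe sets, -0.82 to 1.08. With the replicates paired its SE was 0.16 and limma gave an adjusted p of 0.915, and without either replicate 3 array the log2 fold change was 0.33. The other probe set (1421705_at) had means of 11.8 in Meis1cko and 13.1 in control DRGs, below the lowest 25th percentile of an array (20.8), with a log2 fold change of -0.17.

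The beta subunit genes had overlapping genotypes on all 6 of their probe sets. Scn2b, whose protein links to alpha subunits by a disulphide bond and promotes their surface expression, had 1115, 1037 and 1233 in Meis1cko and 1017, 1052 and 906.0 in control DRGs on 1436134_at. The replicate 2 arrays were of like brightness and the other 2 pairs were higher in Meis1cko, with a log2 fold change of 0.19 (SE 0.13) and a 95% interval of -0.11 to 0.48. Its dimmer probe sets had -0.25 and -0.08.

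Scn4b encodes another disulphide-linked beta subunit, whose cytoplasmic tail is known to produce resurgent current in large neurons. Its probe set (1434008_at) had 3210, 3515 and 3399 in Meis1cko and 3399, 3514 and 2675 in control DRGs. Of the 6 arrays, 5 lay close together and control replicate 3 was low, and the log2 fold change of 0.09 (SE 0.14) became -0.04 without that array.

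Scn3b, whose protein binds alpha subunits without such a bond, was the only gene with a log2 fold change below 0 on its brightest probe set (1435767_at). It had 1483, 1311 and 1277 in Meis1cko and 1547, 1380 and 1422 in control DRGs, a log2 fold change of -0.10 (SE 0.12), and each Meis1cko array was below the control array of its number. Its other probe set (1426328_a_at) had 37.9, 37.2 and 126.1 in Meis1cko and 47.4, 56.8 and 201.8 in control DRGs. The replicate 3 arrays were the brightest of each genotype, and the 3 pairs differed by -0.33, -0.61 and -0.68 on the log2 scale. Unpaired, the log2 fold change was -0.54 (SE 0.66, unadjusted p = 0.440 in limma). With the replicates paired its SE was 0.115 and its unadjusted p 0.00201, and limma gave an adjusted p of 0.280.

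Taking the 9 brightest probe sets, 8 had a log2 fold change above 0 (88.9%, where 45.8% of all genes did), with a median of 0.13 beside -0.01 for all genes. The 9 genes share the 6 arrays and are not replicates, so this is given without a test. Of the other 14 probe sets, 7 were above 0. With the probe sets of each gene averaged, 6 of the 9 genes were above 0 with a median of 0.09, and without control replicate 3 the count was 5 with a median of 0.07. Without replicate 1 of both genotypes the count was 6 and the median 0.01, beside 0.00 for all probe sets. In these arrays the 95% intervals of Scn11a, Scn3b, Scn2b, Scn4b and Scn8a all lay between ratios of 0.768 and 1.41, while that of Scn3a reached from 0.568 to 2.11 and those of Scn9a and Scn1a reached 0.68 on the log2 scale. With 3 mice per genotype, these data do not tell differences within an interval apart.

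**Figure D3:**
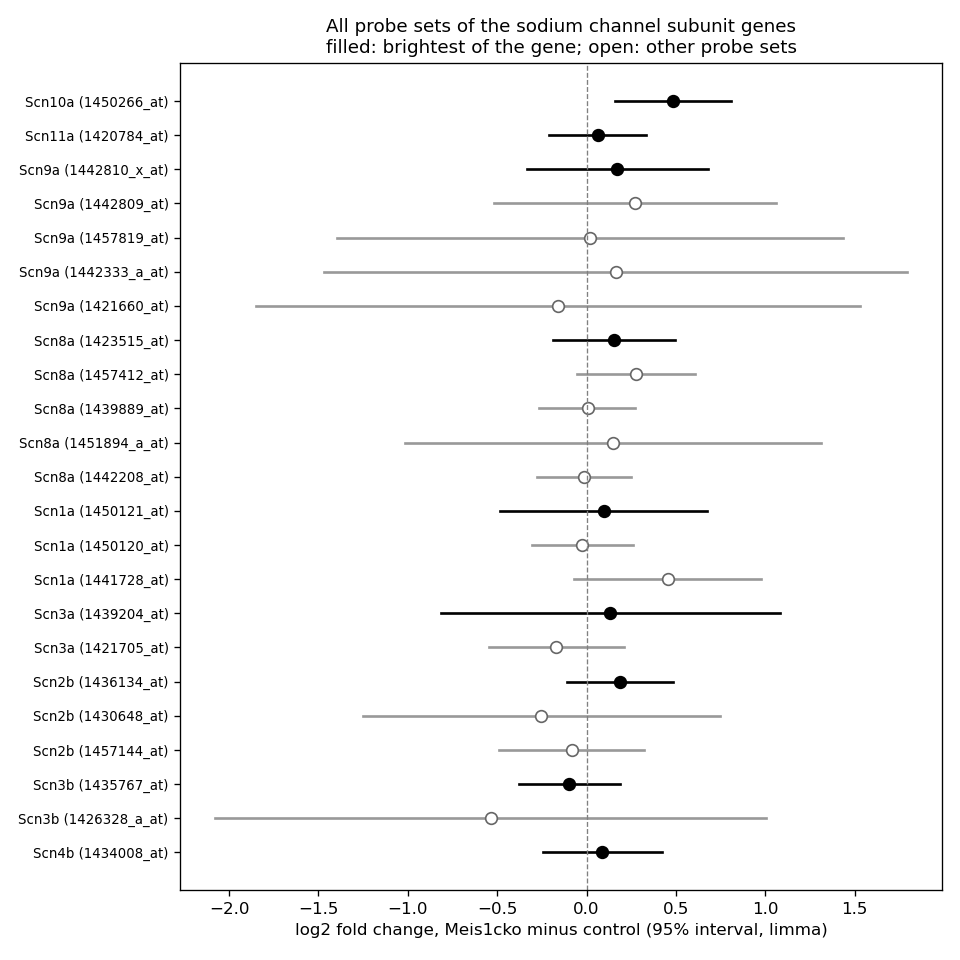
Log2 fold change (Meis1cko minus control, horizontal axis) with its 95% interval from limma for the 23 probe sets of the 9 sodium channel subunit genes (rows), 3 mice per genotype, with filled circles for the brightest probe set of each gene and open circles for the others. The interval of Scn10a, from 0.16 to 0.81, is the only one that does not reach 0, and the 3 dimmest probe sets of Scn9a have intervals of over 1 log2 unit on either side of 0.

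Several probe sets with wide intervals had replicate 3 arrays far from the other arrays. In both genotypes, replicate 3 was over 2-fold brighter than the mean log2 of replicates 1 and 2 on 4 of the 23 probe sets (17.4%), where 1.93% of all probe sets were. These 4 are 3 of the 5 probe sets of Scn9a and the dimmer one of Scn3b. Probe set 1442333_a_at of Scn9a had 164.1, 152.4 and 690.6 in Meis1cko and 158.0, 146.7 and 530.8 in control DRGs, and 1457819_at had 171.2, 201.1 and 650.0 in Meis1cko and 199.8, 186.6 and 577.5 in control DRGs. The replicate 3 arrays thus stood apart in both genotypes by far more than the genotypes did. Probe set 1421660_at of Scn9a had 57.9, 60.9 and 136.6 in Meis1cko and 39.9, 58.2 and 289.4 in control DRGs. Just under the limit of 2-fold in 1 genotype was 1451894_a_at of Scn8a, with differences of 0.88 in Meis1cko and 1.66 in control DRGs on the log2 scale.

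In the opposite direction, 0 of the 23 probe sets were over 2-fold lower on replicate 3 in both genotypes, beside 0.318% of all probe sets, and the nearest was the brighter one of Scn3a with -1.33 in Meis1cko and -0.74 in control DRGs. None of the 9 brightest probe sets moved by over 2-fold in both genotypes. For Scn9a, the brightest differed by -0.16 in Meis1cko and 0.40 in control DRGs, so that probe sets of 1 gene moved differently on the same arrays. The 3′ over 5′ difference of Gapdh moved with the same arrays, at -0.01 on average on the replicate 3 arrays and 0.80 on the others, as did that of Actb above. Their part in these differences was not tested. With the replicates paired, the SE of 1442333_a_at was 0.115, beside 0.70 unpaired. Its log2 difference was 0.16 in both fits, and the paired limma gave an adjusted p of 0.833.

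**Figure D4:**
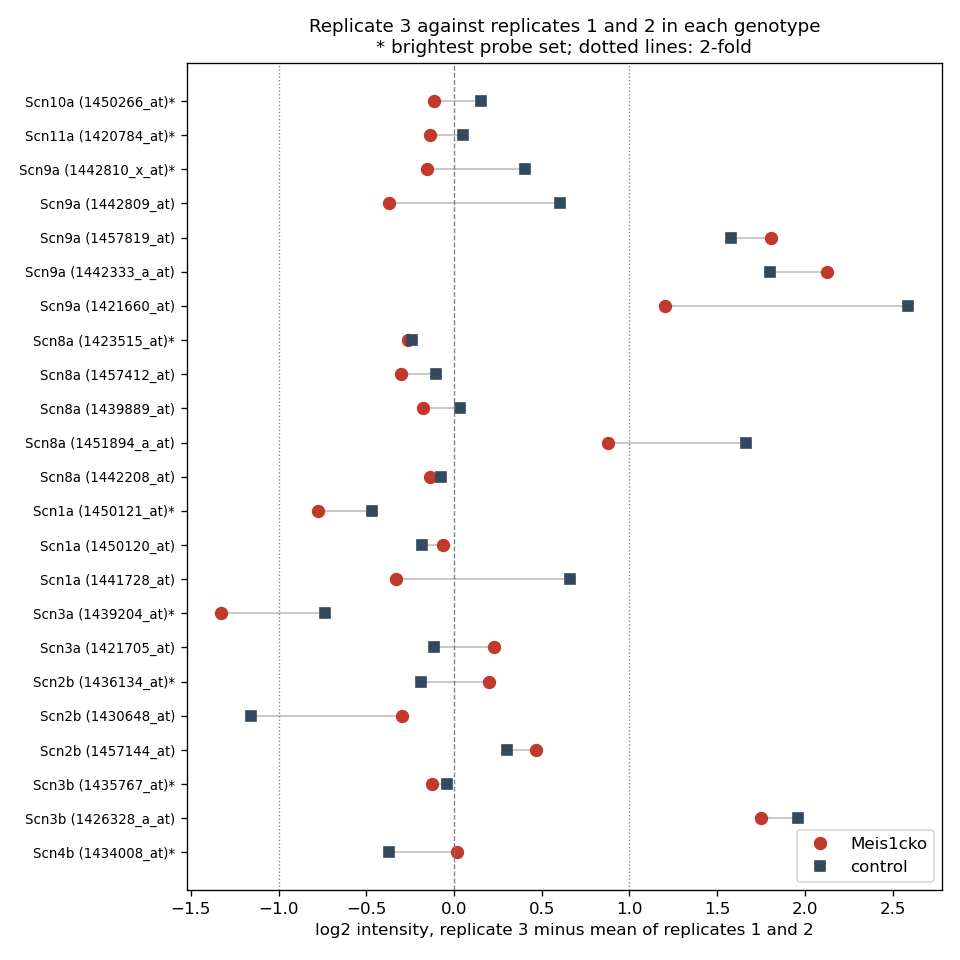
Log2 intensity of the replicate 3 array minus the mean of replicates 1 and 2 (horizontal axis) for the 23 sodium channel probe sets (rows), with circles for Meis1cko and squares for control. In both genotypes 4 probe sets, 3 of Scn9a and 1 of Scn3b, lie beyond the upper dotted line of 2-fold, while those of Scn10a and Scn11a lie between -0.14 and 0.15.

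Of 8 further genes of sodium channel subunits and of the sodium leak channel complex, 5 were measured and 0 were higher or lower at the adjusted threshold in limma, with a median log2 fold change of 0.06. Unc80, a subunit of the leak channel, had 1372, 1270 and 1282 in Meis1cko and 1064, 1131 and 1163 in control DRGs. The genotypes did not overlap, and the log2 fold change was 0.23 (SE 0.11, unadjusted p = 0.0803 in limma). Nalcn, the pore of that channel, differed by 0.02 on the log2 scale (SE 0.14), and Unc79, its other large subunit, had -0.13 at means of 16.1 in Meis1cko and 17.5 in control DRGs, below the lowest 25th percentile of an array. Scn7a, which encodes a sodium-sensing channel next to Scn9a, had 0.06 (SE 0.11). Scn2a, the gene of Nav1.2 of the central nervous system, had means of 84.4 in Meis1cko and 67.3 in control DRGs with overlapping arrays and a log2 fold change of 0.35 (SE 0.23).

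Of 24 genes whose proteins anchor, traffic or modulate sodium channels, 21 were measured and 0 passed the adjusted threshold of limma, with a median log2 fold change of 0.03 and a range of -0.18 to 0.30. The 5 with the smallest p were Fgf14, Nfasc, Cntn1, Sptbn4 and Ank3. Fgf14, an intracellular fibroblast growth factor that binds the tail of alpha subunits, had 37.1, 38.2 and 44.3 in Meis1cko and 33.0, 33.6 and 30.3 in control DRGs. Its genotypes did not overlap, with a log2 fold change of 0.30 (SE 0.12, unadjusted p = 0.0437 in limma) on a dim probe set. Nfasc, an adhesion molecule of nodes and initial segments, had 0.21 and did not overlap either, while Ank3, the ankyrin that anchors channels there, had 0.15. Cntn1, an adhesion partner that raises the surface level of Nav channels, had -0.18, and the spectrin gene Sptbn4 had -0.13, both with overlapping arrays.

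Genes of the cells that express these channels were read on the same arrays. Of 16 measured nociceptor genes none passed and 7 were above 0, with a median log2 fold change of -0.01, and the list's summed intensity was 57375 to 61828 in Meis1cko and 58357 to 61668 in control DRGs. Its 4 members with the smallest p were Th at -0.49, Trpv1 at -0.22, Mrgpra3 at 0.21 and Nppb at -0.22 on the log2 scale. Trpm8, the cold receptor gene, was in the lowest part of the array at 12.6 in Meis1cko and 13.9 in control DRGs. The list does not hold Scn10a, whose difference from the list's median log2 intensity within arrays is given above.

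Of 16 measured genes of myelinated neurons 14 were above 0, with a median of 0.10 and a summed intensity of 77046 to 82029 in Meis1cko and 72211 to 79168 in control DRGs. None passed the adjusted threshold of limma. Ntrk3, the neurotrophin receptor gene of proprioceptors, had 926.6, 868.9 and 832.3 in Meis1cko and 616.8, 655.8 and 609.6 in control DRGs, with no overlap and a log2 fold change of 0.48 (SE 0.11), and Esrrg, Kcna1 and Runx3 had 0.38, 0.19 and 0.32. The part of these neurons in the values of Scn1a and Scn8a was not tested.

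Among the other cells of the ganglion, Schwann cell genes (9 measured) had a median log2 fold change of -0.03, with the lipid-binding myelin gene Pmp2 at -1.52, which passed with the replicates paired (adjusted p = 0.0252 in limma) and not otherwise (adjusted p = 0.185). Their sum was 24667 to 26335 in Meis1cko and 26198 to 28548 in control DRGs. Satellite glia genes (10) had a median of -0.04, with Ednrb at -0.68 and Kcnj10 at -0.36, and a sum of 36135 to 37422 in Meis1cko and 35062 to 39739 in control DRGs. Connective tissue genes (10) had a median of -0.31 and a sum of 15316 to 20102 in Meis1cko and 17906 to 29395 in control DRGs, with Lum at -1.34 and Col3a1 at -0.73. Lum passed with the replicates paired (adjusted p = 0.00717 in limma) and not otherwise (adjusted p = 0.0686). The part of these cells in the values of the sodium channel genes was not tested.

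Endothelial and mural cell genes (10) had a median of 0.07, with the smooth muscle actin gene Acta2 at 0.76 and Cldn5 at 0.24, and a sum of 5533 to 8768 in Meis1cko and 4910 to 6777 in control DRGs. Macrophage genes (10) had -0.23 and a sum of 1723 to 2707 in Meis1cko and 1937 to 3373 in control DRGs, with Mrc1 at -0.90 and C1qa at -0.48. Skeletal muscle genes (10) had -0.17 with overlapping sums, 2918 to 3688 in Meis1cko and 2384 to 5975 in control DRGs. Pvalb, which is also on the list of myelinated neuron genes, had 1958 to 2195 over the 6 arrays, a large part of these sums. Myh1 had 1.77 (SE 1.30), with 366.8, 432.2 and 111.4 in Meis1cko and 30.8, 725.5 and 19.8 in control DRGs. Myl1 had -0.63 (SE 0.68). Of 10 spinal cord genes, 7 were below the median of the array, the median log2 fold change was 0.04, and Gad2 and Gad1 had -0.13 and 0.33. Their sum was 9707 to 11633 in Meis1cko and 10310 to 11372 in control DRGs. It rests in large part on 1 gene, Slc17a6, with means of 5048 in Meis1cko and 5273 in control DRGs. Gad2 had means of 22.0 in Meis1cko and 24.0 in control DRGs, and Gad1 had 45.7 in Meis1cko and 33.1 in control DRGs. None of these genes passed the adjusted threshold of limma in either fit.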

How the data were processed

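Per the methods, array images were read with the Affymetrix GeneChip Command Console and analysed in GeneSpring, and t-tests with a p under 0.05 and a fold over 1.5 called genes. The values deposited by the authors are normalized intensities on a linear scale. How probes were summarised and arrays normalized is not given in the sources used here, so neither is how dim probe sets were treated. The table holds 45101 probe sets, and 64 controls among them were not tested. Array annotation lists 1 gene for 34945 of the 45037 tested, several for 932 and none for 9160, and the 9 genes and the gene lists were matched by exact symbol.

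Intensities were taken to log2 with values under 1 set to 1. The genotypes were compared in R 4.3.3 with limma 3.58.1 (lmFit, eBayes) over all 45037 probe sets, unpaired, with Benjamini-Hochberg adjustment and 0.05 as the threshold. Whether the t-tests of the methods were paired is not stated for the arrays, and the t-test among the alternatives was run unpaired. The fit was tested on simulated data. Same-numbered arrays deviated from their group means together (correlations of 0.424, 0.535 and 0.766), and the numbers were taken to pair the arrays in an alternative fit. Replicates 1 and 2 of different genotypes correlated at 0.337 and 0.319, and replicate 3 with the others between -0.60 and -0.52, so that the pairing rests mainly on replicate 3 standing apart. The labels call the arrays biological replicates, and 3 mice per genotype were used. Brightness also depends on the probes, so that a level above or below the median of the array is only a rough guide, and no detection calls were used. The number of arrays limits the precision.

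The genes named are the 9 members on every probe set, Meis1, and the measured genes of the first pathway list. Of the other lists, those with the smallest p are named (5 for channel modulators, 4 for nociceptors and myelinated neurons, 1 or 2 for other cells). A few more are named for the tissue check, the array annotation or their level after their values had been seen. Members and lists were chosen with earlier results of these data known. Promoter windows and neighbouring genes come from RefSeq (GRCm38.p6). Alternatives were the pairing, array weights, a variance trend, the methods' t-test, 3 scalings, 2 filters, offsets of 16 and 50, arrays left out, and averaged probe sets.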

Additional observations from a re-analysis of the deposited data

How the results depend on the processing

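The count of sodium channel genes past the adjusted threshold was 0 under every alternative run, and Scn10a kept a log2 fold change between 0.37 and 0.57 in all of them, with adjusted p from 0.116 (array weights) to 1. Its unadjusted p was 0.0522 and 0.0561 in limma without replicate 1 or without replicate 2 of both genotypes and between 0.00183 and 0.0421 otherwise. Over the whole array, 7 probe sets passed, against 37 with the replicate block, 177 with array weights, 11 with the trend, 11 with quantile normalization, 4 above the median, 1 with an offset of 16 or of 50, 0 with the methods' t-test (1371 at an unadjusted p under 0.05, of which 185 with a fold over 1.5), 1 to 15 without a single array (15 without Meis1cko replicate 3) and 0 to 26 without 1 replicate number of both genotypes (26 without replicate 3). Apart from Pmp2 and Lum, the block changed no other call of a named gene. With averaged probe sets, Scn2b had -0.050 and Scn3a -0.019. Directions also turned when arrays were left out, with ranges without a single array of -0.060 to 0.355 for Scn1a, -0.115 to 0.574 for Scn3a, -0.036 to 0.161 for Scn4b and -0.070 to 0.307 for Scn9a. The cause was not tested. With 1 replicate number left out, Scn3a had -0.075 and Scn9a -0.041 without replicate 1, and Scn4b had -0.041 without replicate 3. Scn3a was below the median filter, which gave it no value.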
